A study of Bos taurus with 30 samples.

Results

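The miR-15/16 family is described here through its 6 members in the deposited bovine table, bta-miR-15a, bta-miR-15b, bta-miR-16a, bta-miR-16b, bta-miR-195 and bta-miR-497, chosen by name from 1030 miRNAs. The samples were testes of Holstein-Friesian bull calves, all taken at 12 weeks of age. The High calves (n = 15) had been offered 1.5 kg of milk replacer (10 litres) a day with unrestricted concentrates since 2 weeks of age, for an intended gain of 1.0 kg a day. The Moderate calves (n = 15) had been given milk replacer at 0.5 kg or 4 litres a day, with concentrates held to 0.5 kg, for an intended gain of 0.5 kg a day. Small RNA libraries were sequenced from whole testis, 1 library per sample. In whole tissue, fewer cells of a type and less RNA per cell cannot be told apart.

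MicroRNAs are short RNAs that guide a silencing complex to messenger RNAs, mainly through the few bases near their 5′ end called the seed. The miR-15/16 family shares a seed. In human and mouse cells its members repress cell-cycle regulators (D-type cyclins, cyclin E, CDK6, WEE1 and CHEK1) and BCL2, which blocks apoptosis. In mouse the family is known for slowing the division of heart muscle cells around birth, and in human the loss of the miR-15a locus is known from chronic lymphocytic leukaemia. In a prepubertal testis the dividing cells include Sertoli cells and the germ cells that precede sperm formation.

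The family comes from gene pairs. All 6 members matched a gene in the RefSeq table of the cattle assembly ARS-UCD2.0, which was used here for names and neighbours only. The nearest gene to MIR15A was MIR16A, and the reverse, so these lie together, and both lay inside LOC100847818. MIR15B and MIR16B were likewise each other's nearest gene, and both lay inside SMC4, which encodes a subunit of the chromosome-compacting condensin complex. MIR195 was the nearest gene to MIR497, and both lay inside 1 long noncoding RNA gene, LOC107131510. The mature miR-16a and miR-16b are nearly identical, so the split of reads between these 2 members is uncertain; how the authors assigned such reads is not stated.

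Libraries held 6.0 to 19.98 M reads, recovered from the deposited values, and 24 of them held fewer than 12 M (11 High and 13 Moderate). All 6 members were above 0 in all 30 libraries and passed the filter on low values, with 136 to 65158 reads each. The diet was taken from the diet field of the labels, which 18 of the 30 sample titles contradict, so results were also computed in the 12 libraries (6 per diet) whose labels give 1 diet. The library labelled Moderate replicate 5 stood apart: miR-10b took 84.8% of its reads, and each result is given with and without it where it matters. The markers of gonadal somatic cells, miR-202 and miR-140, were detected in all groups, with summed levels of 3672 to 4590 under High and 1893 to 5057 under Moderate (3361 to 5057 without Moderate replicate 5). The striated muscle markers summed to at most 24.1, with 2 of 5 at 0 in every library.

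bta-miR-16b was the most abundant member, 33rd in mean level among the 387 miRNAs tested. Its level in TMM-scaled CPM (reads relative to a library size adjusted for composition) was lowest at 2255, in the middle at 2824 and highest at 3322 under High, against 1349, 2577 and 2938 under Moderate. The other members followed in the order bta-miR-16a, bta-miR-195, bta-miR-15a, bta-miR-497 and bta-miR-15b, which ranked 59th, 69th, 92nd, 99th and 129th. Within libraries, miR-16b exceeded miR-16a in 30 of 30, on average 3.03-fold. miR-16a exceeded miR-195 in 29 of 30, on average 1.395-fold, and the exception was Moderate replicate 5. miR-195 exceeded miR-15a in 30 of 30 (2.17-fold), and miR-497 exceeded miR-15b in 30 of 30 (2.55-fold). The closest neighbours were miR-15a and miR-497: miR-15a was higher in 28 of 30 libraries, by 0.37 ± 0.34 in log2 (SD), so their levels lay about 1 SD apart.

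**Figure D1:**
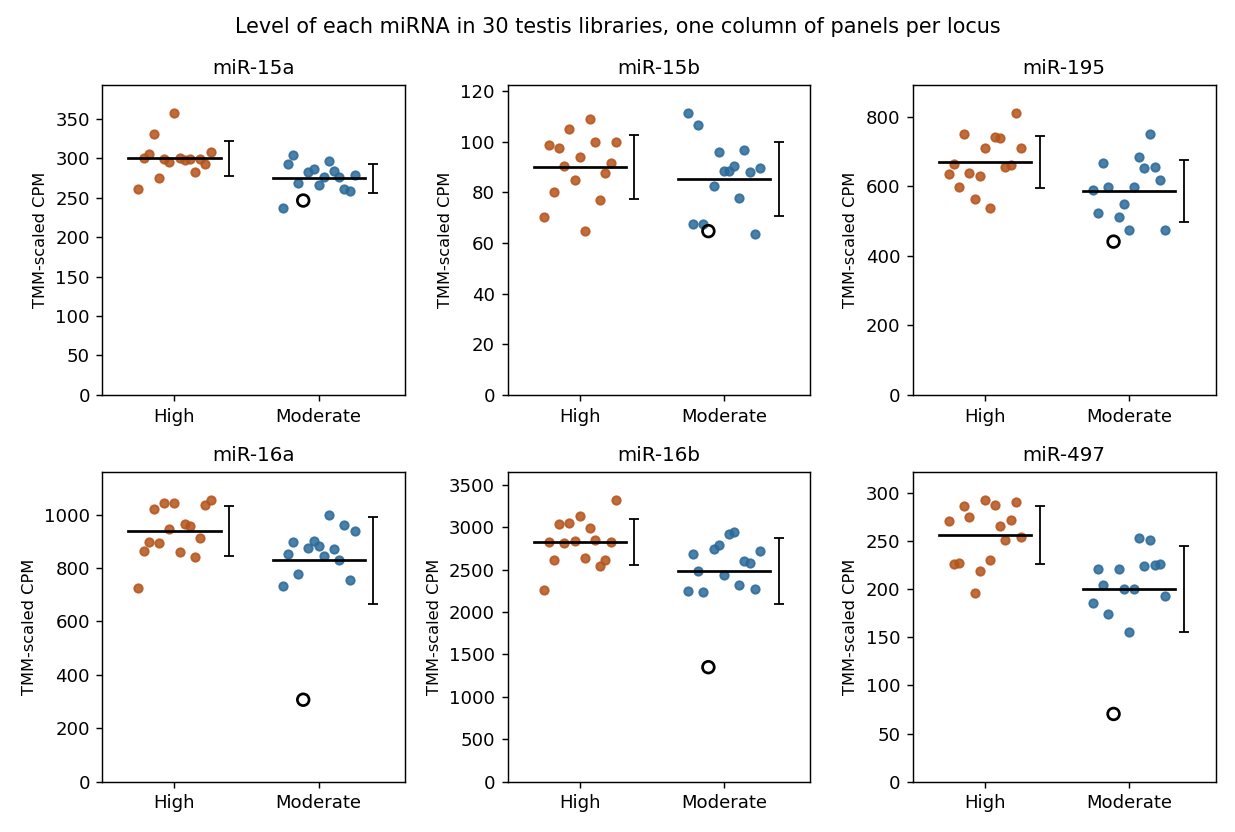
Level of each member in TMM-scaled CPM (vertical axes from 0) in every library, by diet, with 1 column of panels per gene pair. Points are libraries, the open circle is Moderate replicate 5, lines are means and bars beside them are SDs (n = 15 each); for miR-497 the means were 256 under High and 200.4 under Moderate, and the diets overlapped for every member.

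miR-16b supplied more than all other members together, 55.6% of the family's summed level under High and 55.6% under Moderate. miR-16a gave 18.4% under High and 18.4% under Moderate. miR-195 gave 13.2% under High and 13.3% under Moderate. The miR-15 partners were much scarcer than the miR-16 forms made from the same loci, with miR-15a at 5.93% under High and 6.28% under Moderate, and miR-15b at 1.77% under High and 1.94% under Moderate. The share of miR-497 was 5.07% ± 0.639 under High and 4.44% ± 0.651 under Moderate (SD, n = 15 each). The 6 levels summed to 5077 ± 423.7 TMM-scaled CPM under High and 4460 ± 636 under Moderate (4601 ± 335, n = 14, without Moderate replicate 5). As a part of all reads the family made up 0.547% ± 0.0564 under High and 0.445% ± 0.119 under Moderate (0.473% ± 0.0541, n = 14, without Moderate replicate 5).

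bta-miR-497 was the member that passed the test between the diets. Its lowest, median and highest levels were 196, 265 and 293 TMM-scaled CPM under High, against 70.4, 205 and 254 under Moderate. The diets overlapped, but 9 High libraries lay above every Moderate one, and 5 Moderate libraries lay below every High one. The median of Moderate was exceeded by 14 of 15 High libraries, and 15 of 15 Moderate libraries lay below the median of High. The mean was 256 ± 30.1 under High and 200.4 ± 44.7 under Moderate (SD, n = 15 each). The log2 fold change, High over Moderate, of TMM-scaled CPM + 0.5 was 0.40 (SE 0.12; 95% confidence interval 0.15 to 0.64), and miR-497 rose at an adjusted p of 0.0462 in limma with Benjamini-Hochberg adjustment over the 387 miRNAs tested. In that comparison 4.91% of all miRNAs tested passed the threshold of 0.05 (19 of 387), against 1 of the 6 family members, and the p of miR-497 ranked 19th.

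Without Moderate replicate 5, which had the lowest miR-497 level, the Moderate mean was 210 ± 27.6 (n = 14) and the fold change was smaller but its error smaller still, at 0.29 (SE 0.07; adjusted p = 0.00665, limma). Then 11.7% of all miRNAs tested passed, and 1 of 6 members. The count test of edgeR on the recovered reads gave 0.34 (adjusted p = 0.0251), where 9.52% of all miRNAs tested passed and again 1 member. The call was close to the threshold: when each library was left out in turn, miR-497 passed in 7 of 30 limma fits, with adjusted p from 0.00665 to 0.0805. In the 12 libraries whose labels give 1 diet the fold change was 0.63 (adjusted p = 0.353, limma), and 0.39 (adjusted p = 0.109) without Moderate replicate 5. In the 18 libraries whose labels conflict it was 0.24 (adjusted p = 0.142, limma), and the difference between these subsets, 0.39, did not pass (adjusted p = 0.785, limma interaction). Among the 24 libraries under 12 M reads it was 0.43 (adjusted p = 0.109), and 0.31 (adjusted p = 0.00925) without Moderate replicate 5. In the 6 deeper libraries the difference in log2 level was 0.23 (4 High against 2 Moderate, two-sided exact permutation p = 0.400). The smallest p that this two-sided exact permutation test allows for that split is 0.133.

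Its locus partner bta-miR-195 had levels of 536, 661 and 811 TMM-scaled CPM (lowest, median, highest) under High, against 441, 597 and 752 under Moderate. The diets overlapped over most of their range, with 13 of 15 High libraries above the median of Moderate. The mean was 669 ± 74.4 under High and 586 ± 89.1 under Moderate (SD, n = 15 each), a log2 fold change of 0.20 (95% confidence interval 0.05 to 0.35) that missed the threshold (adjusted p = 0.0820, limma). When each library was left out in turn, miR-195 passed in 1 of 30 limma fits, with adjusted p from 0.0482 to 0.1325. The 1 fit that passed was without Moderate replicate 12, at 0.23. Without Moderate replicate 5, which had the lowest miR-195 level, the log2 fold change was 0.17 and did not pass (adjusted p = 0.0798, limma).

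The members of the miR-15a locus had positive fold changes that did not pass in limma. bta-miR-15a had levels of 261, 299 and 357 TMM-scaled CPM under High (lowest, median, highest), against 237, 277 and 305 under Moderate. This is a small shift in a miRNA that varied little: the log2 fold change was 0.13 (95% confidence interval 0.04 to 0.22; adjusted p = 0.0820, limma), and 14 of 15 Moderate libraries lay below the median of High. The SD of miR-15a within diets was 0.10 in log2, and 4 of the 387 miRNAs tested had a smaller one (12 of 387 without Moderate replicate 5), where the median over all miRNAs tested was 0.33. bta-miR-16a had levels of 727, 945 and 1055 under High, against 307, 871 and 998 under Moderate. Its log2 fold change was 0.21 (95% confidence interval -0.0074 to 0.43; adjusted p = 0.254, limma) and 0.11 (adjusted p = 0.153) without Moderate replicate 5, so that 1 library moved the value by more than 1.5 times.

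The members of the miR-15b locus, the most and the least abundant of the family, also had positive fold changes that did not pass in limma. bta-miR-16b, whose levels are given above, averaged 2823 ± 268 TMM-scaled CPM under High and 2485 ± 391 under Moderate (SD, n = 15 each). Its log2 fold change of 0.20 (95% confidence interval 0.04 to 0.36) did not pass (adjusted p = 0.118, limma). Without Moderate replicate 5, its lowest library, the value was 0.14 and also did not pass (adjusted p = 0.0748, limma). bta-miR-15b, the scarcest member, had levels of 64.9, 91.8 and 109 under High, against 63.4, 88.3 and 111 under Moderate. Its log2 fold change was 0.09 (95% confidence interval -0.09 to 0.26; adjusted p = 0.606, limma), and the diets covered nearly the same range. Leaving out 1 library in turn gave 0.0565 (without Moderate replicate 14) to 0.118. By depth, the difference in log2 level was 0.02 under 12 M reads (11 High against 13 Moderate). In the deeper libraries it was 0.33 (4 High against 2 Moderate, two-sided exact permutation p = 0.267). The diet effect did not differ between these depths past the threshold (adjusted p = 0.997, limma interaction).

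Taking the 6 together as a description, 6 of 6 had a positive log2 fold change, where 56.3% of all miRNAs tested did. At an unadjusted p under 0.05 there were 4 of 6 members, where 21.2% of all miRNAs tested were. The median log2 fold change of the members was 0.20, and 0.03 over all 387. Without Moderate replicate 5 these medians were 0.13 and 0.003, the latter over 385 miRNAs tested. In that limma fit 6 of 6 members were positive. An unadjusted p under 0.05 was then reached by 5 of 6 members and by 115 of the 385. DESeq2 on the recovered reads called 3 of 6 members, miR-497 (0.36, adjusted p = 0.00795), miR-15a (0.12, adjusted p = 0.0315) and miR-16b (0.18, adjusted p = 0.0456), where 10.0% of all miRNAs tested passed. The members share libraries and, in pairs, a locus, so they are not independent of each other. Scaling by library totals alone moved the median over all miRNAs to 0.21, and on that scale miR-497 stood at 0.61 and the median of the members at 0.41, with no miRNA past the threshold in limma (61 at an unadjusted p under 0.05; edgeR and DESeq2 with their own scaling made the calls given above).

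**Figure D2:**
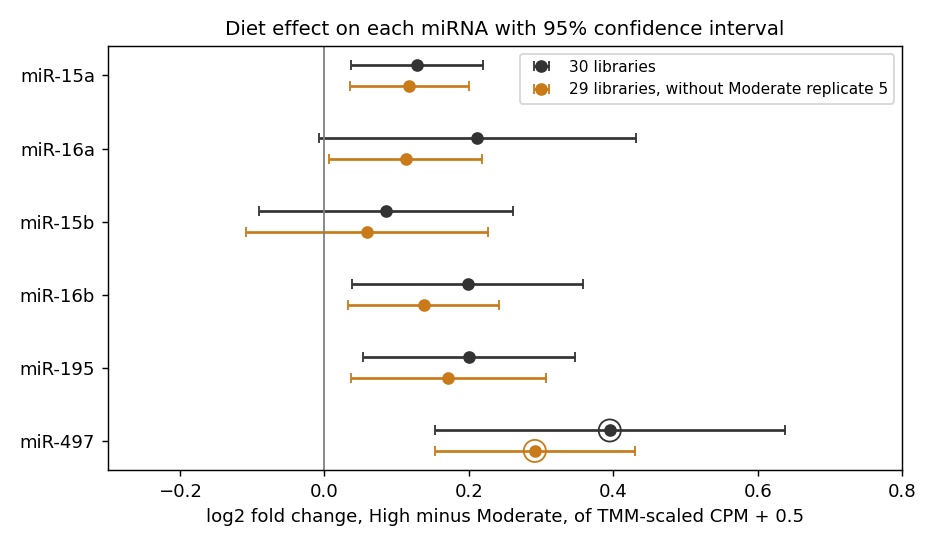
Log2 fold change of TMM-scaled CPM + 0.5, High minus Moderate (horizontal axis), of each member with its 95% confidence interval from limma, in 30 libraries and in the 29 without Moderate replicate 5. Circled points passed an adjusted p of 0.05: miR-497 at 0.40 and at 0.29.

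Ratios within a library do not depend on how libraries were scaled. The log2 ratio of miR-497 to its partner miR-195 was -1.38 ± 0.12 under High and -1.58 ± 0.34 under Moderate (SD, n = 15 each), and 14 of 15 High libraries lay above the median of Moderate. The difference of 0.20 (SE 0.09) had a permutation p of 0.0183, which was 0.0818 after Benjamini-Hochberg adjustment over the 15 pairs of members. miR-497 was also higher relative to miR-15a (0.27, permutation p = 0.00941), miR-15b (0.31, permutation p = 0.0205), miR-16a (0.18, permutation p = 0.0218) and miR-16b (0.20, permutation p = 0.0286) under High than under Moderate, with adjusted p from 0.0818 to 0.0857, so none of the 15 ratios passed. Without Moderate replicate 5 the 5 differences were 0.12 to 0.23 (adjusted p from 0.155 to 0.169). A larger diet effect on miR-497 than on its relatives was therefore not shown. The ratio of miR-16a to miR-16b differed by 0.01 between the diets (SE 0.05, adjusted p = 0.954).

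Partners from each locus varied together among calves of the same diet. After the mean of each diet was subtracted, miR-195 and miR-497 had a Pearson r of 0.67 and a Spearman rho of 0.67 over the 30 libraries (adjusted permutation p = 0.000300 for rho; r = 0.63 without the 2 libraries farthest from the median of miR-195). Without Moderate replicate 5 these were 0.69 and 0.67. miR-15a and miR-16a had an r of 0.55 and a rho of 0.62 (adjusted permutation p = 0.00120), and miR-15b and miR-16b an r of 0.54 and a rho of 0.53 (adjusted permutation p = 0.00831). Of 381 miRNAs outside the family, the closest to miR-15a was miR-93 (rho 0.71) and the closest to miR-15b was miR-30b-5p (0.60). Both of these values exceeded the rho with the locus partner. For miR-195 and miR-497 the closest such miRNAs had a rho of 0.58 and 0.62, below the 0.67 of that pair. The strongest pair crossed loci: miR-16a and miR-16b, which are nearly identical, had an r of 0.92 and a rho of 0.81 (adjusted permutation p = 0.000150, the smallest that 100000 permutations over 15 pairs gave), and 0.81 and 0.78 without Moderate replicate 5. miR-15a and miR-16b, also from different loci, had a rho of 0.71 (adjusted permutation p = 0.000300), and miR-15b and miR-16a one of 0.49 (adjusted permutation p = 0.0184). These 6 of 15 pairs had an adjusted p under 0.05 for rho in 30 libraries and in the 29 without Moderate replicate 5; of the 15 pairs, 5 did in the 24 libraries under 12 M reads, and 4 when that library was also left out. The locus pair miR-15b and miR-16b was among those lost in that last subset (rho 0.47, adjusted permutation p = 0.0780).

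The 8 pairs of miR-195 or miR-497 with a miR-15 or miR-16 form had rho from 0.05 to 0.40, and none passed on rho. On Pearson's r 4 of the 8 had an adjusted permutation p under 0.05 in 30 libraries, and 0 of the 8 did without Moderate replicate 5. For these 4, r in 30 libraries and without that library was 0.80 and 0.18 for miR-16a with miR-497, 0.73 and 0.21 for miR-16b with miR-497, 0.43 and 0.20 for miR-16a with miR-195, and 0.41 and 0.33 for miR-15b with miR-195.

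**Figure D3:**
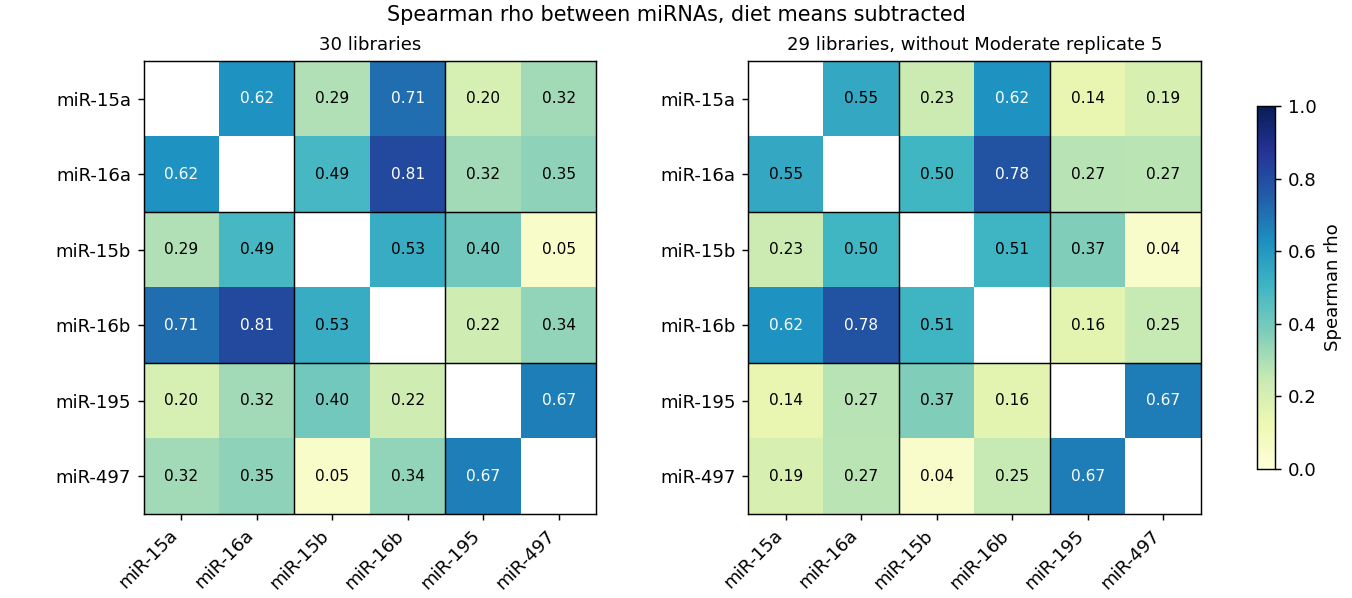
Spearman rho between the members over libraries, with the mean of each diet subtracted, in 30 libraries (left) and 29 (right); colour runs from 0 to 1, and lines separate the gene pairs. The pair of miR-195 and miR-497 stands at 0.67 in both, and the 8 squares that join these 2 with the other 4 members lie between 0.05 and 0.40 on the left.

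Moderate replicate 5 lay below the mean of the other libraries in all 6 members, but not equally so. Its miR-497 level of 70.4 TMM-scaled CPM was 30.1% of the mean of the other 29 libraries, and its miR-16a level of 307 was 33.98%. miR-16b stood at 1349 or 50.0%, miR-195 at 441 or 69.5%, miR-15b at 64.7 or 73.1% and miR-15a at 246 or 85.4%. Its ratio of miR-15a to miR-16a was 0.803, where the other 29 libraries ran from 0.271 to 0.359, and its ratio of miR-195 to miR-497 was 6.26, where they ran from 2.30 to 3.43. Its ratio of miR-15b to miR-16b, 0.0479, lay within their range of 0.0246 to 0.0496. Of the 15 ratios between members, 10 lay outside the range of the other 29 libraries. Its ratio of miR-16a to miR-16b was 0.227, against 0.290 to 0.376 in the others.

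**Figure D4:**
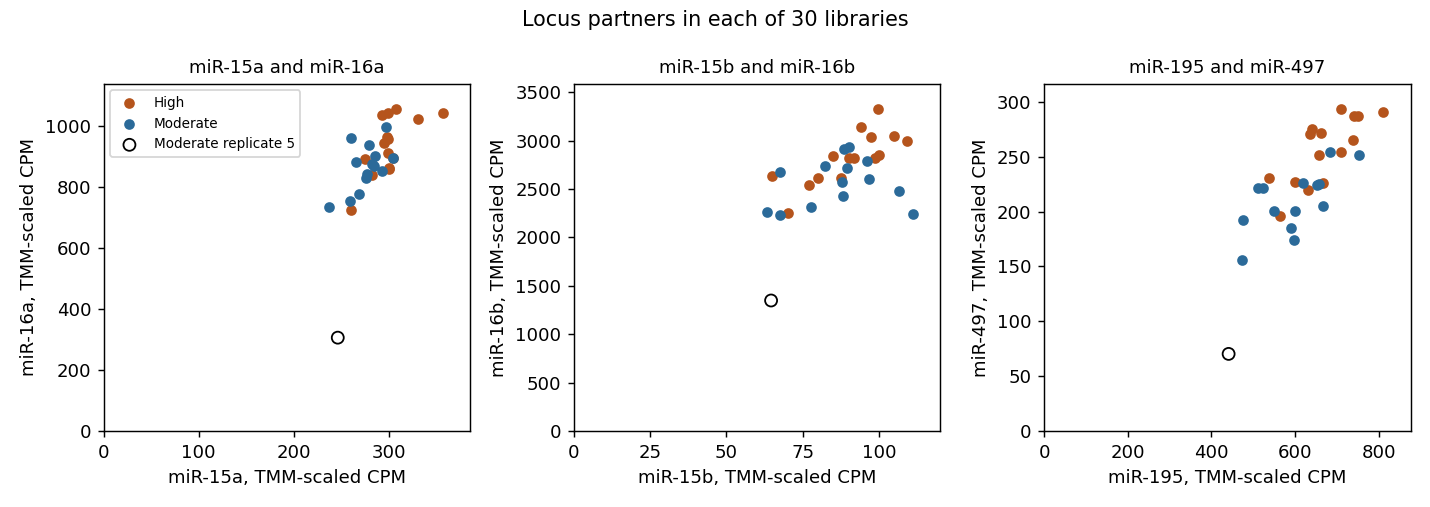
Levels in TMM-scaled CPM of the partners of each gene pair (horizontal and vertical axes, both from 0), 1 point per library, coloured by diet. The open circle is Moderate replicate 5, at 246 and 307 for miR-15a and miR-16a and at 441 and 70.4 for miR-195 and miR-497.

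The relatives outside the 6 did not pass. miR-424-5p, which shares the seed of the family, averaged 3795 ± 270 TMM-scaled CPM under High and 3701 ± 891 under Moderate (SD, n = 15 each), above miR-16b in both. Its log2 fold change was 0.12 (adjusted p = 0.720, limma) and -0.04 (95% confidence interval -0.13 to 0.05) without Moderate replicate 5, where its level of 735 was 19.1% of the mean of the others. miR-503-5p, whose gene was the nearest to that of miR-424, averaged 42.7 ± 5.04 under High and 44.4 ± 9.17 under Moderate, with a log2 fold change of -0.03 (adjusted p = 0.872, limma) and -0.10 without Moderate replicate 5. The opposite arms, miR-424-3p and miR-503-3p, do not carry the seed and stood at -0.05 and -0.05 (adjusted p = 0.649 and 0.606, limma). miR-103 and miR-107, which share part of the seed and were singled out after their values were seen, stood at 0.12 and 0.11 (adjusted p = 0.0820 and 0.246, limma).

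Other miRNAs known to act on the passage from G1 to S phase formed a list of 40 names, 45 of whose 48 rows in the table were tested. Of these 45, 3 rose under High and 0 fell in limma, where 4.91% of all miRNAs tested passed in either direction. The 3 were miR-34a (0.49), miR-34b (0.73) and miR-34c (0.96), which act downstream of p53 in human and mouse cells; miR-34b and miR-34c also stand in the germ cell marker list. The median log2 fold change of the 45 was 0.05, against 0.03 over all miRNAs tested, and 31 were positive. The 3 most abundant on the list, miR-26a (-0.13), let-7f (0.05) and let-7a-5p (0.02), did not pass.

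The 3 miRNAs whose levels followed each member most closely were ranked by Spearman rho over 30 libraries, with the diet means subtracted, among 381 miRNAs outside the family. miR-93, which belongs to the miR-17 family that promotes passage through G1, ranked first for miR-15a (rho 0.71), miR-16a (0.64) and miR-16b (0.62). The next ones were miR-31 (0.58) and miR-2435 (0.56) for miR-15a, miR-188 (0.62) and miR-500 (0.62) for miR-16a, and miR-130b (0.62) and miR-194 (0.55) for miR-16b. miR-15b was most like miR-30b-5p (0.60), miR-106b (0.59) and miR-106a (0.56), the last 2 of which are also miR-17 relatives. miR-195 was most like miR-18a (0.58), miR-424-5p (0.52) and miR-17-5p (0.51).

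miR-497 was most like miR-450b (0.62), miR-450a (0.54) and miR-29a (0.53) in 30 libraries. Without Moderate replicate 5 its 3 closest were miR-1343-3p (0.55), miR-100 (0.55) and miR-421 (0.51), so its list rested on that library. miR-93 was then no longer among the 3 closest to miR-16a, where miR-106b came first (0.57), and was the last of the 3 for miR-16b (0.52), where miR-130b came first (0.62). miR-93 and miR-31 still led for miR-15a (0.61 and 0.54), miR-30b-5p for miR-15b (0.65) and miR-18a for miR-195 (0.49). None of the miRNAs named here as most like a member changed with diet in limma.

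Markers of other cells were set beside the members because miR-16 and miR-15a are abundant in blood cells. The red blood cell markers miR-451, miR-144 and miR-486 were all detected, with a summed level of 887 to 3606 under High (median 1284) and of 755 to 7927 under Moderate (median 1062; highest 1870 without Moderate replicate 5). Their mean log2 level had a rho of -0.16 to 0.12 with the 6 members. All 3 of these markers had positive log2 fold changes (0.18 to 0.42, median 0.25), and none passed in limma. The leukocyte markers miR-142, miR-223, miR-150 and miR-155 gave 5 tested rows. All 5 had negative log2 fold changes (-0.40 to -0.02, median -0.06), and none passed in limma. Their mean log2 level had a rho of -0.06 to 0.20 with the members. The part of red blood cells and leukocytes in the diet differences of the members was not tested. The male germ cell markers miR-34b, miR-34c and miR-449a, of which 2 of 3 rose, summed to 89.3 to 265 under High (median 114) and to 21.9 to 185 under Moderate (median 75.2). Their rho was 0.28 with miR-497 and 0.42 with miR-195, and 0.20 and 0.36 without Moderate replicate 5; the part of germ cells in the diet difference of miR-497 was not tested. The largest rho of a member with any list was that of miR-195 with the epithelial markers, -0.46, and -0.42 without Moderate replicate 5. Those 5 markers were all detected and summed to 11.49 to 17.4 under High (median 13.98) and to 10.7 to 24.8 under Moderate (median 17.8); all 4 that were tested had negative log2 fold changes (median -0.27) and none passed in limma. Their part in the values of miR-195 was not tested. Over 10 marker lists, depth and the share of miR-10b, none of the 72 correlations with a member passed after adjustment. In 30 libraries the lowest adjusted permutation p was 0.680 for rho and 0.0670 for Pearson's r. The largest r, -0.84 for miR-16a with the share of miR-10b, was -0.06 without Moderate replicate 5. Pearson's r of miR-497 with the endothelial and fibroblast lists was 0.67 and 0.71 in 30 libraries, and -0.05 and -0.05 without Moderate replicate 5.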

How the data were processed

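The deposited table holds CPM relative to a TMM-adjusted library size, a signal that the authors made from small RNA read counts; the submitters' processing notes name FastQC, cutadapt and edgeR, and no genome build. Whole reads were recovered from the steps of the values: 95.3% of 18379 values above 0 came out whole within 0.02 of a read, and all values of the 6 members did. 58 miRNAs held fractional values. The labels describe 15 calves per diet, and p-values measure the spread between their samples. miRNAs reaching 1 TMM-scaled CPM in 15 or more of 30 libraries were fitted in limma 3.58.1 (trend) on a log2 scale after adding 0.5, which understates changes of low miRNAs; diet was the single term, with Benjamini-Hochberg adjustment and a threshold of 0.05. The tests by edgeR 4.0.16 (quasi-likelihood) and DESeq2 1.42.0 on recovered reads, and other scalings, filters, pseudocounts, depth, labels and left-out libraries, were alternatives. The fits were also run on simulated counts with the same dispersion for every miRNA and no outlying library. That simulation cannot show how the fits behave with a library like Moderate replicate 5. Replicates are numbered in accession order. Ratios and correlations used 100000 permutations, two-sided. Named are the members, miR-424 and miR-503, the 3 miRNAs most correlated with each member, and of the G1/S list those past the threshold and the 3 most abundant. Members and lists were chosen with earlier results of these data known. A count of 0 allows 0.138 to 1.43 TMM-scaled CPM (3 reads, counting error only).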

Additional observations from a re-analysis of the deposited data

How the results depend on the processing

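miR-497 stayed positive in all alternatives run. It lost its call with no filter on low values (0.40, 0 miRNAs past the threshold in all), library totals alone (0.61, 0 past), depth as a covariate (0.40), libraries under 12 M reads (0.43, 3 past), the diet of the titles (0.11, 0 past), the 12 libraries with 1 diet in both labels (0.63, 0 past) and the 18 in conflict (0.24, 0 past). With the diet of the titles miR-15a (-0.0153), miR-15b (-0.0698) and miR-16b (-0.0102) turned negative. DESeq2 brought miR-15a (0.12) and miR-16b (0.18) past the threshold, with 48 miRNAs past it, and edgeR had 36. Sample quality weights did so for miR-15a (0.12), miR-16b (0.15) and miR-195 (0.19), with 64 past. Chosen after seeing the data were 6 settings of the diet test and 1 of the correlations without Moderate replicate 5. There edgeR passed miR-15a (0.13; 48 in all), DESeq2 miR-15a (0.13) and miR-16b (0.15; 60 in all), library totals alone miR-16b (0.21) and miR-195 (0.24; 31 in all), and upper-quartile scaling miR-15a (0.15), miR-16b (0.17) and miR-195 (0.20; 46 in all). In the libraries with 1 diet in both labels miR-15b turned to -0.0668 and miR-497 lost its call (0.39; 0 in all), and under 12 M reads miR-15b turned to -0.0107 (31 in all). Leaving out 1 library in turn gave 0.29 to 0.42 for miR-497, 0.17 to 0.23 for miR-195 and 0 to 45 miRNAs past the threshold; 0 was without High replicate 5 and 45 without Moderate replicate 5. The causes were not tested. No ratio between members passed in any of the 3 alternatives run. No paired analysis was possible because the labels give no replicate numbers that pair High with Moderate calves. Each member had 136 or more reads in every library; with 1 library per sample, spread between calves and between library preparations cannot be told apart.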
